A study of Homo sapiens with 20 samples.

Results

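The genes described here were counted in NGP neuroblastoma cells after treatment with nutlin-3 and in no vehicle sample. They are the GENCODE genes of the type protein_coding (mRNAs) or lncRNA whose rounded estimated counts summed to 0 over the 10 vehicle samples and to at least 10 over the 10 nutlin samples. These genes were thus chosen by their counts in the 20 samples compared here, and the counts are given as a description. By this rule 289 genes were nutlin-only, of 34439 mRNA and lncRNA genes with a transcript in the files, and 155 of them were mRNAs and 134 lncRNAs. NGP is an established human neuroblastoma cell line with amplified MYCN. The nutlin samples received a racemic mixture of nutlin-3 at 8 µM and the vehicle samples received ethanol, and the duration of treatment is not given in the sources used here. Poly(A) RNA was sequenced from stranded libraries. The study calls the samples biological replicates of a cell line, the sources used here do not say which of them came from separate cultures, and p-values therefore measure the spread between these samples, which may be technical in part.

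Nutlin-3 occupies the pocket of MDM2 that holds p53, so that p53 is no longer ubiquitinated and accumulates. p53 then binds DNA as a tetramer at response elements made of paired decamers, and raises the transcription of genes for cell cycle arrest, apoptosis and DNA repair. Which of the genes below are bound by p53 was not tested.

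To look for stretches that resemble response elements, the sequence around the start of each gene was searched for the p53 consensus. It consists of 2 blocks of 10 letters, here with no spacer. The consensus is its own reverse complement, so that 1 pass covers both strands. The 4 core letters of each block were required and up to 2 mismatches were allowed at the other positions, within 5000 bases on either side of the start of the gene's most counted transcript. At least 1 match lay near 31 of the 289 nutlin-only genes (10.7%), against 1386 of the 27712 genes tested for differential expression, 7.17% of the 4491 genes induced by nutlin and 4.90% of the 3471 genes with no count in any sample. Of the 20 vehicle-only genes defined below, 2 had a match, a share close to that of the nutlin-only genes but over few genes. With at most 1 mismatch the shares were 4.15%, 0.927%, 1.74% and 1.07% in the same order. Among the 67 nutlin-only genes counted in all 10 nutlin samples 11 (16.4%) had a match with at most 2 mismatches, and among the 44 with at least 50 counts, a subset chosen after the values were seen, 10 (22.7%). Of the 57 tested genes of a list of known p53 targets, 36.8% had a match with at most 2 mismatches. A match is a resemblance of letters and not a binding site, the base composition around the starts was not taken into account, and the search was run with 1 setting of window and mismatches.

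The 12 nutlin-only genes with a match of at most 1 mismatch have the matches closest to the consensus, and those of 10 of them are shown. Capitals mark the 20 bases of the match, and 5 bases on each side are in lower case, written 5′ to 3′ on the strand of the gene.
LINC00469: gccatGGGCTAGTTCAGGCTTGTTCacagg
HSD17B3: ggagtGAACTTGCTTGAACTTGCTCagcag
ENSG00000273098: gtgttAGGCATGCTTGAACATGCCTgaacg
LINC01173: agcctAGCCTAGTTTAAACATGCCTtagcc
SEMA3E: cccaaGGGCAAGTGTGGGCTTGTCCtagaa
OR10H2: tagctGGGCATGTTTGCACTAGCCTctagt
ENSG00000261025: tacctATGCAAGCCCAGGCAAGTCCctttt
ENSG00000282317: acgggTGACTTGCCCAGACATGCCCgcaat
ENSG00000267314: tggcaAGACTTGGCCAAGCTTGCCTggagt
ENSG00000223432: cccttGGACTTGCCCGGACTAGTCAacctg

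The first 3 had 0 mismatches and the others 1. A match with 0 mismatches was also found near ENSG00000253286, a lncRNA gene with 10 counts in 6 samples, at position −1682 from its start, and its sequence is not shown here. The match of LINC00469 lies at chr17:73832656-73832675 (GRCh38), at position −4146 from its start, in an intron of the lncRNA gene ENSG00000265927. That of HSD17B3, which encodes the testicular enzyme that makes testosterone, lies at chr9:96300162-96300181 in an intron of the gene, which is also an intron of ENSG00000285269, 2004 bases downstream of the start. The match of ENSG00000273098 is also intronic, at chr17:13099659-13099678, 3761 bases downstream of the start. The match of LINC01173 is intergenic, at chr2:234680996-234681015 and position −1662 from the start. In SEMA3E, a secreted axon guidance ligand, the match at chr7:83612738-83612757 lies within an intron of the gene, at position −100 from the start of its most counted transcript, which has no defined coding sequence. The intergenic match near OR10H2, at chr19:15731808-15731827, lies 3794 bases downstream of the start of this olfactory receptor gene. Matches with 2 mismatches include one at chr22:39097291-39097310 in an exon of APOBEC3H, 57 bases downstream of the start, and one at chr12:9883094-9883113 in an intron of KLRF2, 1615 bases downstream of the start.

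Per vehicle sample, between 14455477 and 19532971 read pairs were assigned to transcripts, and per nutlin sample between 15078052 and 17442896. The vehicle group was the deeper one, with 176342830 read pairs against 159826757. At this depth a total of 0 vehicle counts allows up to 3 counts, or 0.0170 CPM (counts per 1e6 read pairs), and the smallest total that the rule accepts, 10 nutlin counts, equals 0.0626 CPM. These limits cover counting error only. Set against the limit of 3 vehicle counts, the observed nutlin counts were 3.68-fold to 216-fold higher per read pair, with a median of 6.25-fold. These ratios take the nutlin counts as exact, and the genes were chosen by these counts, so that the ratios are not lower bounds. They include genes whose assignment is uncertain, as described below. The order of the ratios follows the counts and is not a measure of the true fold-change.

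The rule applied the other way found few genes. A count in the vehicle group with none in the nutlin group was found for 534 genes, and 20 of them (3.75%) reached 10 counts. A count in the nutlin group with none in the vehicle group was found for 2722 genes, and the 289 nutlin-only genes are 10.6% of these. Among the 26069 genes with at least 10 counts over all samples, 1.11% were nutlin-only and 0.0767% vehicle-only. Every sample was also thinned by a single random draw to the smallest total of 14455477 read pairs, a step added once the values were known. In this draw 287 genes were nutlin-only and 18 vehicle-only. Since the rule chose these genes by their counts, none of these numbers is a test.

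The counts of most nutlin-only genes were spread over the nutlin samples. A count was found in all 10 nutlin samples for 67 genes, in 8 or 9 for 100, in 5 to 7 for 100 and in 4 or fewer for 22, of which 3 had all counts in 1 sample. The totals had a median of 17 counts with quartiles of 12 and 32, and 162 genes had fewer than 20 counts while 19 had at least 100. For the 162 genes the number of samples with a count says little, since counting error alone can leave single samples at 0. Of the 20 vehicle-only genes, 0 were counted in all 10 vehicle samples and 10 were counted in 3 or fewer. Their totals had a median of 16 counts and reached 987, for the lncRNA gene ENSG00000263244, in 9 vehicle samples. The lncRNA gene ENSG00000176868 had 533 counts and the mRNA gene H2AC18 443, in 8 vehicle samples each. High totals against 0 thus also occurred in this direction. Each nutlin sample held a count for between 197 and 233 of the 289 genes, lowest in replicate 4 and highest in replicate 9, and these genes took between 52.7 and 78.7 CPM. In TPM, which is per length, the mean over the nutlin samples had a median of 0.155 and was at least 1 for 18 genes, so that these are low levels.

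**Figure D1:**
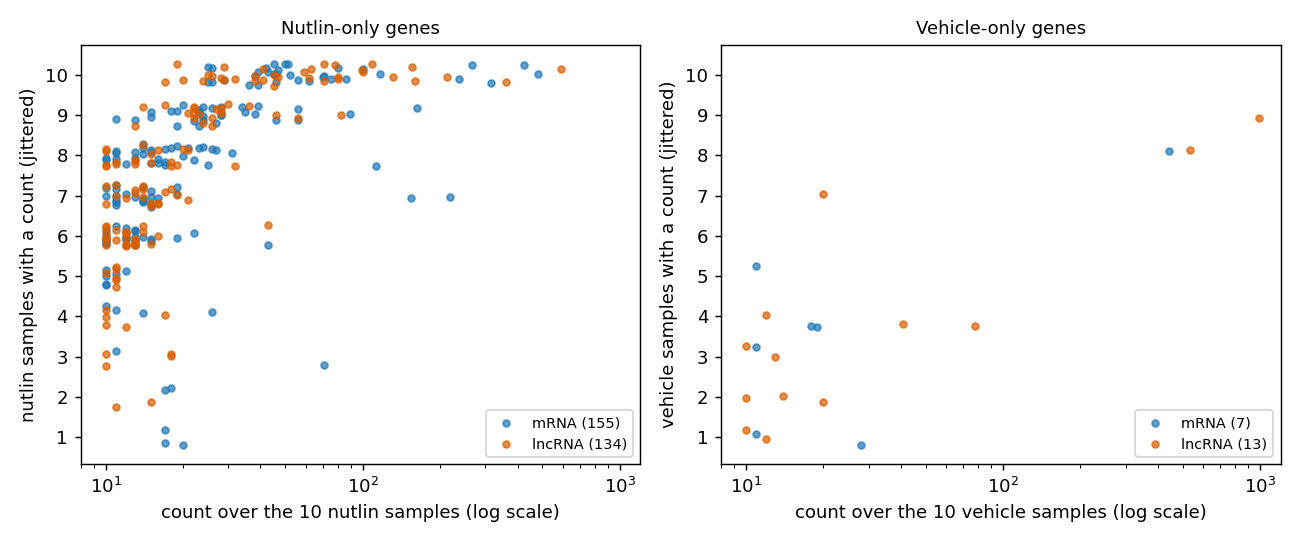
Total count (x axis, log scale) against the number of samples with a count (y axis, shifted slightly at random so that points do not hide each other) for the 289 nutlin-only genes over the nutlin samples (left) and the 20 vehicle-only genes over the vehicle samples (right). Each point is a gene, blue for mRNA and orange for lncRNA, and the upper row of 67 genes counted in all 10 samples on the left has no counterpart on the right.

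At the edge of the rule, 33 nutlin-only genes had exactly 10 counts, among them the keratin gene KRT36, the defensin gene DEFB136 and the histone gene H1-6. Just outside it were 50 genes with 9 nutlin counts and 0 vehicle counts, such as ENSG00000228719 and RASSF3-DT, both counted in 8 nutlin samples. A further 203 genes had at least 10 nutlin counts and were left out for 1 vehicle count. Several of these were counted as often as the leading nutlin-only genes. LINC02051 had 336 nutlin counts, CRYBG2 310, MEP1A, a subunit of the metalloprotease meprin, 277, and MUC16, the mucin that carries the antigen CA125, 191. All 4 were counted in all 10 nutlin samples. These genes differ from the nutlin-only genes by that 1 count.

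The most counted mRNA was that of CSTA (chr3:122325248-122341969, plus strand), which encodes cystatin A, an inhibitor of cysteine proteases in the cornified envelope of skin. It had between 21 and 72 counts in the nutlin samples with a median of 49, and 5.27 ± 1.7 TPM (SD, n = 10). DNAI3 (chr1:84999147-85133138, plus strand), which encodes an intermediate chain of the axonemal dynein arms of cilia, had between 34 and 51 counts with a median of 41, over a transcript of 23 exons. No nutlin sample stood apart. KDM4E, a gene without introns for a histone demethylase, had between 24 and 41 counts with a median of 29, and 70% of its values were whole numbers of read pairs, so that a part of its counts was shared with other genes.

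CD274 (chr9:5450503-5470566, plus strand) encodes PD-L1, the ligand by which cells inhibit T cells through PD-1. Its counts in the nutlin samples ran from 11 in replicate 4 to 37 in replicate 10, with a median of 27.5 and a mean level of 0.542 TPM. The nearest gene induced by nutlin was 264856 bases away. SCN4B, a beta subunit of sodium channels, had between 15 and 33 counts with a median of 25. KLRF2, which encodes a C-type lectin receptor of the natural killer complex, had between 8 and 16 counts with a median of 12. For CSTA, DNAI3, CD274, SCN4B and KLRF2 the summed estimated counts were whole numbers in every sample, that is, within 0.01 of a whole number.

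As for KDM4E, this was not so for the other 4 leading mRNAs, where kallisto shared read pairs between transcripts of different genes. FER1L6 had 22 to 45 counts in 7 nutlin samples and 0 in replicates 9, 10 and 11, and none of its values was whole. ENSG00000263620, a gene that shares exons with PER1 and VAMP2 on the same strand, had between 3 and 45 counts in 7 samples and 0 in replicates 1, 2 and 11, with no whole value either. CRACDL had between 1 and 38 counts in 8 samples, and 50% of its values were whole. RAB44, a Rab GTPase gene, had between 11 and 28 counts in 9 samples and 0 in replicate 2, with 44.4% of the values whole. The counts of these 4 genes rest in part or whole on the division of shared read pairs, and their assignment is uncertain.

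The lncRNA with the highest total, ENSG00000263574 (chr17:73737854-73756932, plus strand), had between 46 and 71 counts with a median of 59.5 and a level of 3.93 ± 0.58 TPM. LINC00469 (chr17:73749270-73828520, minus strand) had between 27 and 41 counts with a median of 37.5 and, at 5.33 ± 0.85 TPM, the highest level per length of all 289 genes. The exons of these 2 genes overlap on opposite strands, 50% of the values of each were whole, and read pairs of the shared stretch cannot be told apart, since the sources used here do not state whether kallisto used the strand. Together with LINC02092, which had between 0 and 6 counts, they form a group on 17q whose nearest induced gene, SDK2, lies 93409 bases from ENSG00000263574. LINC00469 is also the most counted gene with a consensus match of 0 mismatches shown above.

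LINC02571, which lies in the HLA class I region, had between 11 and 42 counts with a median of 19. It was at 3.67 ± 1.6 TPM, with its highest count in replicate 9, and HLA-C, which presents peptides to T cells, is the nearest induced gene at 21778 bases. LINC01451 had between 8 and 22 counts, LINC01707 between 11 and 20 and LINC01173 between 9 and 17. LINC01173 was at 4.90 ± 0.96 TPM. Of the 15 lncRNAs with the highest totals, 14 were counted in all 10 nutlin samples. The exception, SIGLEC5, is typed as lncRNA in GENCODE 44 under this identifier (ENSG00000105501), shares exons with SIGLEC14, and had no whole value. ENSG00000247765, with between 5 and 18 counts, had no whole value either, and for ENSG00000279006 50% of the values were whole. The canonical transcripts of LINC01707 and LINC00656 in GENCODE 44 were not among the transcripts analysed.

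**Figure D2:**
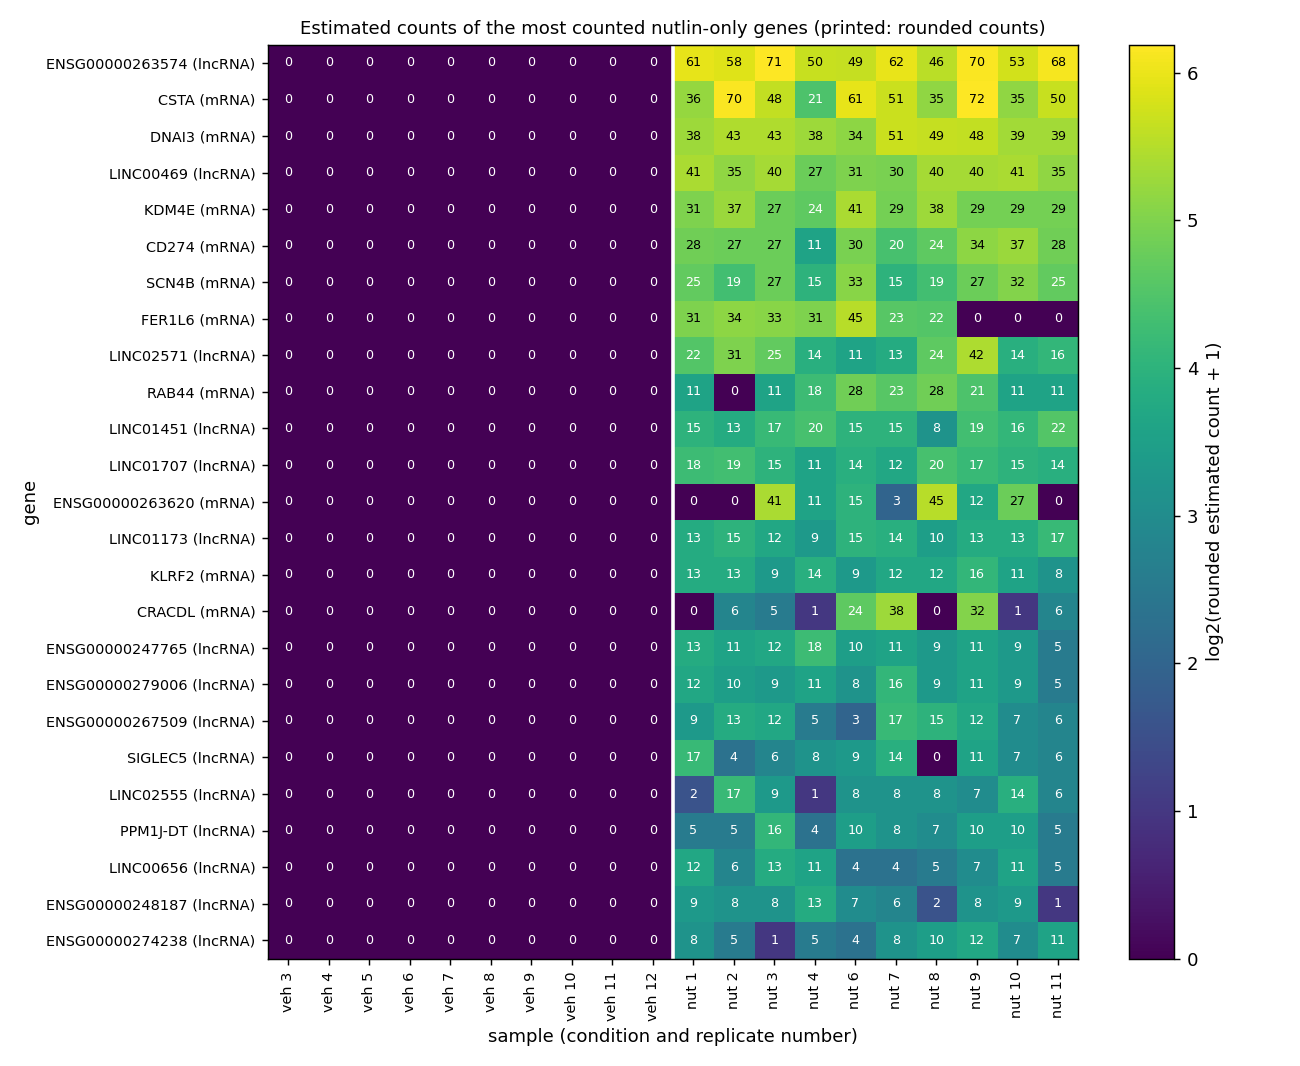
Rounded estimated counts of the 10 mRNAs and 15 lncRNAs with the highest nutlin totals (rows) in the 10 vehicle and 10 nutlin samples (columns), with the count printed in each cell and coloured on a log2(count + 1) scale. The vehicle columns are 0 by the rule, and 5 rows (FER1L6, RAB44, ENSG00000263620, CRACDL and SIGLEC5) hold at least 1 nutlin sample at 0.

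The identity of the 289 genes rests on the assignment of read pairs to transcripts. For 202 genes every counted sample had a whole number of read pairs, and for 36 fewer than 50% of the counted samples did. A whole number does not by itself show that no read pair was shared. The canonical transcript of GENCODE 44 was among the transcripts analysed for all but 42 genes. For these 42 the counts rest on other transcripts of the gene, and a level of 0 in vehicle need not hold for the gene as a whole. NOTCH1, a receptor for ligands on neighbouring cells, is such a case. Its 11 counts lay on a transcript with a retained intron, in 3 nutlin samples and with no whole value. SEMA3E, XG, which carries a blood group antigen, and ESPN, which bundles actin, were also among the 42. An exon of the most counted transcript overlapped an exon of another gene on the same strand for 31 genes and on the opposite strand for 41. With whole counts, an analysed canonical transcript and counts in at least 3 nutlin samples required together, 173 of the 289 genes remained.

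The nutlin-only mRNAs encode proteins of many tissues. In a sorting by function or usual tissue of expression, made after the values were seen, 69 of the 155 mRNAs fell into 8 groups. For these groups the genes of each kind in the files were not counted, so that no group is shown to be overrepresented. Of all 155 nutlin-only mRNAs, 33 were counted in all 10 nutlin samples. Of 14 genes of epidermis and other epithelia, 4 were counted in all 10 nutlin samples. Beside CSTA these were LYPD3, a surface protein of keratinocytes, with 46 counts, KRTAP10-6 with 45 and KRT83, a hair keratin, with 29. The splicing regulator ESRP1 (34 counts), the protease inhibitor SPINT1 (26) and the transcription factor EHF (15), which are typical of epithelia, were counted in 9, 9 and 7 samples. EPCAM and CDH1, the 2 defining epithelial markers on the list used here, were counted in every vehicle sample. EPCAM went from between 3 and 14 counts in vehicle to between 13 and 33 after nutlin (LFC of 1.70 ± 0.24, SE, adjusted p = 4.4e-07), and CDH1 from between 1 and 13 to between 5 and 22 (LFC of 0.81 ± 0.26, adjusted p = 0.0097).

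Among 15 immune and inflammatory genes, 6 were counted in all 10 nutlin samples. These were CD274, KLRF2, DEFB134, TNF, APOBEC3H and CLEC9A. TNF encodes the inflammatory cytokine and had between 1 and 9 counts with a median of 4.5. APOBEC3H, a cytidine deaminase that restricts retroviruses, had between 1 and 6 with a median of 4. CLEC9A, a receptor of dendritic cells for dead cells, had between 1 and 9 with a median of 3. PTGS2, the inducible cyclooxygenase, had 16 counts in 8 samples, and its most counted transcript was one subject to nonsense-mediated decay. Of the leukocyte markers, CD3E was at 0 in all 20 samples, PTPRC had between 0 and 6 counts and CD14 between 0 and 15, and neither of the latter was past the threshold (adjusted p = 0.26 and 0.071).

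Striated muscle was represented by 9 genes, of which XIRP2, a protein of intercalated discs, had 62 counts, TNNI2, fast skeletal troponin I, 52, and SCN4A, the skeletal muscle sodium channel, 47, each in all 10 samples. Of the values of SCN4A 70% were whole, and of those of XIRP2 80%. The other 6 muscle genes had between 11 and 20 counts. They include CACNA1S, the calcium channel of the transverse tubules, and MYMK, which fuses myoblasts. XIRP2 was at 0.0511 TPM over a long transcript, so that its count overstates its level beside that of TNNI2 at 0.670 TPM.

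Of 6 genes for liver enzymes and plasma proteins, ALB, which encodes serum albumin, had between 0 and 14 counts with a median of 8.5, in 9 samples. UGT2B17, a glucuronosyltransferase of steroids, had between 2 and 13 in all 10 samples, but 20% of its values were whole. ORM1, an acute phase protein, had 43 counts, of which 14 fell in replicate 8. FETUB (38 counts), AZGP1 (17) and CYP2C8 (17) completed the group. Testis genes numbered 7, led by TEX37 with 51 counts and SPANXC with 50, although 60% of the values of SPANXC were whole.

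Secreted ligands were also found. NTF4, a neurotrophin that acts through TrkB, had between 3 and 16 counts with a median of 8, although 50% of its values were whole and its exons overlap those of 3 genes. TGFA and BTC, ligands of the epidermal growth factor receptor, had 19 and 12 counts, PDYN, the precursor of dynorphins, 26, and SOST, the Wnt inhibitor sclerostin, 11. The 6 developmental transcription factors MSGN1, EVX1, ASCL4, MEOX2, HES5 and SOX8 had between 11 and 19 counts, and none of them was counted in all 10 samples.

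**Figure D3:**
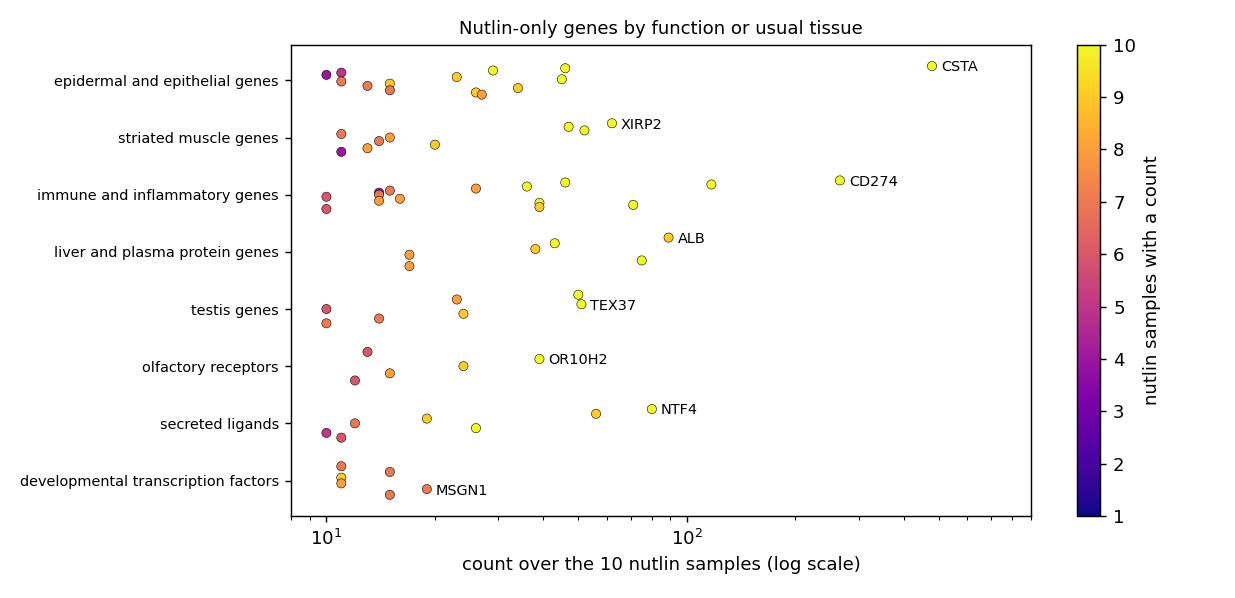
Total counts over the 10 nutlin samples (x axis, log scale) of the 69 nutlin-only mRNAs in 8 groups by function or usual tissue (y axis), coloured by the number of nutlin samples with a count, with the most counted gene of each group named. CSTA (479 counts) and CD274 (266) stand to the right of all others, and no transcription factor exceeds 19.

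Outside these groups, CFAP144, a protein of ciliary microtubules, had between 2 and 16 counts with a median of 9.5, and CHRNA4, a subunit of nicotinic acetylcholine receptors, between 4 and 13 with a median of 6. SLC34A1, the phosphate transporter of the kidney tubule, had between 2 and 10, TRIM42 between 1 and 8 and the intelectin gene ITLN2 between 2 and 8. All 5 were counted in all 10 nutlin samples with whole values throughout. Among lncRNAs, 34 were counted in all 10 nutlin samples. ENSG00000267509 had between 3 and 17 counts, LINC02555 between 1 and 17 with a median of 8 and PPM1J-DT between 4 and 16 with a median of 7.5. LINC01135, which begins 336 bases from the start of JUN in the opposite direction, had between 1 and 5.

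A few gene families held 3 or more of the nutlin-only genes, which made up 0.839% of all genes in the files and 0.933% of those with a count in any sample. Of the 292 olfactory receptor genes, of which 106 had a count in any sample, 5 were nutlin-only, namely OR10H2 (39 counts), OR10H5 (24), OR10A7 (15), OR10H1 (13) and OR13J1 (12). Of 95 genes for keratin-associated proteins of hair, 33 of them counted, 4 were nutlin-only, with 11 to 45 counts. Of 50 keratin genes, 41 of them counted, there were 3, with 10 to 29 counts, and of 40 beta-defensin genes, which encode antimicrobial peptides and of which 17 were counted, 3, with 10 to 71. Of 438 genes with an SLC or SLCO symbol, 4 were nutlin-only, namely SLC34A1 (56 counts), SLCO2A1 (22), SLC10A2 (21) and SLC28A1 (19), and this share of 0.913% is near that of all genes. Of 15 GOLGA6 golgin genes, 12 of them counted, 3 were nutlin-only. These 3, GOLGA6D, GOLGA6L6 and GOLGA6L22, had no whole value, and GOLGA6L6 and GOLGA6L22 were counted in 1 sample each. The golgin gene GOLGA6L1 was vehicle-only, with 11 counts in 3 samples. These golgin genes belong to a family of similar copies, between which the counting could divide read pairs. FAM223A and FAM223B are also copies, and had identical counts of 18 in 3 samples.

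Several of these families lie side by side. When genes within 100000 bases of each other were joined, 56 of the 289 genes fell into 24 groups of at least 2. The largest, with 5 genes, lies at chr21:44350163-44602174 and holds TRPM2, LINC02575, KRTAP10-2, KRTAP10-6 and KRTAP10-7. OR10H2, OR10H5, OR10H1 and the lncRNA CLEC4OP lie together at chr19:15728024-15864924. The 3 defensin genes DEFB136, DEFB135 and DEFB134 lie at chr8:11973937-12000752, with totals of 10, 39 and 71. NOTCH1, ENSG00000227512 and LINC01451 form a group at chr9:136494433-136617181. TNNI2 and TNNT3, which encode 2 subunits of fast muscle troponin, share a group on chromosome 11.

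The question where these genes lie was addressed by their neighbours. A gene was called induced when edgeR called it higher after nutlin at an adjusted p below 0.05 with an LFC of at least 1, which held for 4491 of the 27712 genes tested (16.2%). No nutlin-only gene was tested, since a count in each condition was required. An induced gene overlapped the nutlin-only gene or lay within 10 kb of it for 87 of the 289 genes (30.1%), against 20.3% of all genes tested and 10.8% of the genes with no count in any sample. Among the 20 vehicle-only genes it was 5, too few for a share to be read. A gene called lower with an LFC of at most −1 lay within 10 kb of 7 of the 289 genes (2.42%), against 8.77% of the genes tested, 2.91% of the genes with no count in any sample and 2 of the 20 vehicle-only genes.

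The gap between nutlin-only genes and all genes tested differed with the LFC required of the neighbour. A large LFC can rest on few counts. MLC1, beside TTLL8, had 0 to 1 counts per vehicle sample and 1 to 6 per nutlin sample (LFC of 3.77). TRPC7, beside TRPC7-AS1, had 0 to 1 and 0 to 5 (LFC of 3.76). Whether the gap followed the strength of induction or the low counts of the neighbours was not tested. With any gene called higher as a neighbour, the shares were 40.1% and 41.0%, and the nutlin-only genes did not stand above the genes tested. With an LFC of at least 2 they were 20.1% and 8.00%, with 3.51% of the genes with no count in any sample. With a window of 50 kb in place of 10 kb they were 50.2% and 36.7%, and with 1 kb 17.0% and 13.1%. With the filterByExpr filter, which leaves out rarely counted neighbours, they were 15.9% and 12.6%, the latter over the 16347 genes then tested. Of the genes with no count in any sample, 4.55% had such a neighbour under this filter. The share was similar for mRNAs (29.7%) and lncRNAs (30.6%), and among the 173 genes that met the stricter requirements it was 28.3%. Neighbouring genes share regions, and these shares are descriptions of positions with no test. The median distance to the nearest induced gene was 47004 bases, and for 103 genes it exceeded 100000 bases.

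**Figure D4:**
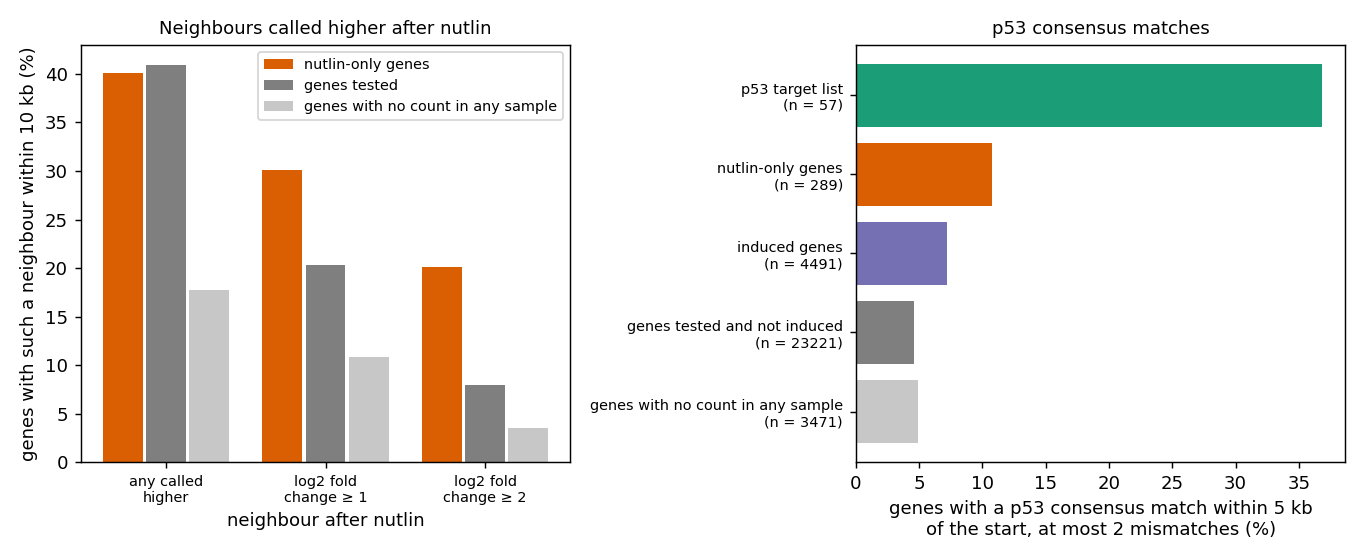
Left, the percentage of nutlin-only genes (orange), genes tested (dark grey) and genes with no count in any sample (light grey) that have within 10 kb a gene called higher after nutlin, at 3 limits on the neighbour's LFC. At the lowest limit orange and dark grey stand at 40.1% and 41.0%, and at an LFC of at least 2 at 20.1% and 8.00%. Right, the percentage of genes in 5 sets with a p53 consensus match near the start, from 36.8% in the p53 target list and 10.7% in the nutlin-only genes to 4.58% in the genes tested and not induced.

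By orientation, the nearest induced gene overlapped 17 of the 289 genes on the same strand (5.88%, against 2.81% of the genes tested) and 23 on the opposite strand (7.96%, against 7.53%). A position downstream of it on the same strand was found for 12 genes (4.15%, against 2.38%) and upstream of it on the same strand for 14 (4.84%, against 2.71%). Starts faced each other for 8 genes (2.77%, against 2.55%), and ends faced each other for 13 (4.50%, against 2.32%). By type the differences went both ways. Of the nutlin-only mRNAs 6.45% lay downstream of an induced gene on the same strand (tested mRNAs 2.65%), 5.81% overlapped one on the opposite strand (7.26%) and 1.29% lay head to head with one (2.66%). Of the nutlin-only lncRNAs 1.49% lay downstream on the same strand (tested lncRNAs 1.93%), 10.4% overlapped on the opposite strand (7.98%) and 4.48% lay head to head (2.39%). For genes that overlap or follow an induced gene, read pairs of the neighbour can fall within the annotated exons, and this was not tested.

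Within 10 kb, the neighbour with the largest LFC was SYT8, a synaptotagmin gene, 1460 bases upstream of TNNI2 on the same strand. SYT8 had between 0 and 2 counts in the vehicle samples and between 53 and 107 in the nutlin samples, with an LFC of 7.15 ± 0.29 (SE, adjusted p = 4.6e-19). TNNI2 itself had between 2 and 8 counts, in all 10 nutlin samples. EPHA2, a receptor tyrosine kinase for ephrins, rose from between 4 and 24 counts to between 1221 and 1451, with an LFC of 6.61 ± 0.089 (adjusted p = 1.9e-30). The antisense gene EPHA2-AS1, which overlaps it, had between 1 and 12 counts with a median of 6, and ENSG00000224621, which lies head to head with EPHA2 at 3197 bases, had 15 counts in 6 samples.

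TRPV6, an epithelial calcium channel, rose from between 0 and 5 counts to between 180 and 243, with an LFC of 6.89 ± 0.16 (adjusted p = 2.4e-25). The lncRNA gene ENSG00000224970 overlaps exons of TRPV6 on the opposite strand and had 15 counts in 7 samples. SIGLEC14, a sialic acid receptor, rose from between 0 and 2 counts to between 49 and 76, and SIGLEC5, which had between 0 and 17, shares its exons. HHATL, a paralogue of the hedgehog acyltransferase, rose from between 0 and 2 counts to between 52 and 69, and ENSG00000285539, a lncRNA gene that shares exons with it, had 10 counts in 4 samples. In all 3 pairs the exons overlap. For SIGLEC5 no value was whole and for ENSG00000285539 50% were, so that their counts rest in part or whole on read pairs shared with other genes. The values of ENSG00000224970 were whole in all 7 samples. This does not show that its counts are its own, since it is not stated whether kallisto used the strand.

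CDH8, a cadherin of neurons, rose from between 3 and 12 counts to between 352 and 474, with an LFC of 5.80 ± 0.11 (adjusted p = 9.1e-27). ENSG00000260600, a gene of 1 exon that overlaps CDH8 on the same strand, had between 0 and 9 counts in 9 samples. WDFY4, a protein of antigen presentation, rose from between 0 and 4 counts to between 80 and 99, and ENSG00000228403, which overlaps it on the same strand, had 11 counts in 5 samples. The lncRNA ENSG00000246130 rose from between 0 and 2 counts to between 19 and 74, and CHILL1, which overlaps it on the opposite strand, had between 1 and 5. CHILL1 also lies 2346 bases upstream of TNFRSF10B, the TRAIL death receptor DR5 and a p53 target, which rose from between 80 and 163 counts to between 2133 and 2924 (LFC of 4.55 ± 0.088, adjusted p = 6.5e-27). ENSG00000284797 lies between IQCN and PDE4C on the same strand, overlaps ENSG00000285188 (LFC of 6.06 ± 0.27, adjusted p = 4.4e-18), and had 15 counts in 6 samples.

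Further pairs were chosen after their values were seen. Within 50 kb the neighbour with the largest LFC was CYP4F2, a fatty acid hydroxylase gene 13099 bases upstream of CLEC4OP on the same strand, which rose from between 0 and 4 counts to between 3062 and 4346 (LFC of 11.45 ± 0.12, adjusted p = 3.1e-33). CLEC4OP itself had between 1 and 8 counts. RAB44 lies on the same strand as CDKN1A, which encodes the cell cycle inhibitor p21, and begins 10489 bases downstream of it, just beyond the window of 10 kb. CDKN1A rose from between 265 and 798 counts to between 19271 and 29357 (LFC of 5.68 ± 0.14, adjusted p = 3.9e-24). LINC02480 lies 4350 bases upstream of SPATA18, a gene of mitochondrial quality control, and had between 2 and 6 counts in the 10 nutlin samples. SPATA18 rose from between 4 and 21 counts to between 264 and 450, with an LFC of 4.74 ± 0.12 (adjusted p = 5.1e-24). PICART1, a lncRNA named for its induction by p53, lies 222 bases from the start of the integrin gene ITGA3 in the opposite direction and had 23 counts in 9 samples. ITGA3 rose from between 9 and 20 counts to between 66 and 130 (LFC of 2.89 ± 0.13, adjusted p = 8.8e-18).

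Some neighbours are relatives of the nutlin-only gene. LTA, the lymphotoxin gene 1241 bases upstream of TNF, rose from between 0 and 2 counts to between 2 and 16, with an LFC of 3.50 ± 0.50 (adjusted p = 4.6e-07). CLEC2A, a lectin that lies end to end with KLRF2 at 2840 bases, rose from between 0 and 1 counts to between 8 and 22 (LFC of 5.36 ± 0.42, adjusted p = 2.5e-12). CLEC1A, next to CLEC9A, rose from between 0 and 2 counts to between 15 and 38 (adjusted p = 3.7e-13). ORM2, which is nearly identical to ORM1, rose from between 0 and 3 counts to between 0 and 13 (LFC of 3.14 ± 0.71, adjusted p = 3.5e-04), so that read pairs could be divided between them. KRT86 lies 5138 bases from KRT83 and rose from between 0 and 5 counts to between 16 and 31 (LFC of 3.07 ± 0.28, adjusted p = 8.5e-11).

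As a measure of the treatment, 53 of the 57 tested genes of the p53 target list were called higher and 1, APAF1, lower, and 3 were not past the threshold (CMBL, NINJ1 and PERP). Their median LFC was 2.80, against 0.19 over all genes tested, and 49 of the 57 were induced by the definition above. Testing required a count in each group, so that none of these 57 could be nutlin-only. The listed lncRNA PANDAR was close to the rule, with 1 vehicle count and 82 nutlin counts. Of 11 markers of neuroblastoma and the sympathetic lineage, all were counted in every sample, 4 were called higher and 6 lower, and the median LFC was −0.18. Of 4 fibroblast markers 1 was called higher and 1 lower, as was the case for 3 endothelial markers. Of 2 erythroid markers HBA1 was called higher (LFC of 3.41 ± 0.39, adjusted p = 5.8e-09) and HBB was at 0 throughout, and the hepatocyte marker on the list was ALB itself.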

How the data were processed

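RNA-seq files of 10 nutlin and 10 vehicle samples were used, grouped by their labels. Per the labels the authors quantified reads with kallisto 0.42.4 on hg38 transcripts and deposited, without normalization, an estimated count for each of 198968 transcripts, its length, and TPM values scaled by the authors' runs for length and depth. Transcripts were matched to GENCODE 44, a later release, by identifier (191106, 96.05%). Estimated counts were summed per gene and rounded, and TPM were summed. The nutlin-only genes and the gene lists were chosen with earlier results of these data known. A gene needed a count in both groups to be tested with edgeR 4.0.16 (quasi-likelihood, TMM, Benjamini-Hochberg at 5%) in R 4.3.3. DESeq2 1.42.0 was an alternative. Other alternatives were DESeq2 size factors, other filters on low counts, a replicate block, other limits of the rule, other windows around genes, and leaving out each replicate. Transcripts without a match and genes of other types were left out. A few listed genes are not reported here. Fits were tested on simulated data. Tables and plots used Python 3.11.15, numpy 2.4.6, pandas 2.3.3 and matplotlib 3.10.9.

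Genes were named by rule: the 10 mRNAs and 15 lncRNAs with the highest totals, genes counted in all 10 nutlin samples, the 10 whose neighbours had the largest LFC, genes at the rule's edge and families of at least 3, with a selection given in the text. The p53 search, run with 1 setting of window and mismatches, and the functional groups were chosen after the genes were known. Sequences and gene positions are of GRCh38.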

Additional observations from a re-analysis of the deposited data

Results flagged for a closer look

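Dixon's gap test was applied to the CPM of 92 named nutlin-only genes over the 10 nutlin samples, and 8 exceeded its 95% limit. For normally distributed values chance flags about 1 in 20, and this rate need not hold for counts as small as these. The highest sample stood apart for GOLGA6L6 (gap of 1.0 of the range, all 20 counts in replicate 9), GOLGA6L22 (1.0, all 17 in replicate 2), ORM1 (0.724, 14 counts in replicate 8 against at most 5), OR13J1 (0.595, 5 in replicate 2 against at most 2) and ENSG00000260401 (0.539, 8 in replicate 6 against at most 4). It also did for AWAT2 (0.513, 7 in replicate 10 against at most 4), PNMA6E (0.511, 7 in replicate 7 against at most 4) and SCN4A (0.487, 11 in replicate 9 against at most 7). Replicates 2 and 9 each gave the high value of 2 of the 8 genes, and 4 other replicates gave 1 each.

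Outside mRNAs and lncRNAs, 195 genes of other types met the same rule of 0 vehicle counts and at least 10 nutlin counts, among them 87 processed pseudogenes, 27 unprocessed pseudogenes and 10 TEC genes. The reverse rule found 8. Of the transcripts without a match in GENCODE 44, 153 met the rule.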

How the results depend on the processing

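The number of nutlin-only genes followed the limits of the rule. It was 687 with at least 5 nutlin counts, 127 with at least 20, 492 with at most 1 vehicle count, and 173 under the 3 stricter requirements, which were chosen after the data were seen. Without 1 vehicle sample it was 312 to 329, and without 1 nutlin sample 251 to 263. Without rounding it was 284, and with TEC genes 299. The filterByExpr filter reduced the induced genes from 4491 to 2097 and the nutlin-only genes beside one from 87 to 46, since rarely counted neighbours were not tested. A window of 1 kb gave 49 and one of 50 kb 145. DESeq2 size factors moved the median LFC of all genes tested from 0.19 to 0.24. It was 0.034 over the 16347 genes tested with filterByExpr, and 0.30 over 30968 genes with no filter, which include the nutlin-only genes. The median was thus higher the more rarely counted genes were included.

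In a fit with a replicate block on the 16 samples whose numbers occur in both groups, 3661 genes were induced, 85 nutlin-only genes lay beside one and 52 p53 list genes were called higher, against 4078, 87 and 52 in the same samples without the block. Same-numbered samples did not deviate together (mean correlation of 0.0027 over 8 pairs, and 0 of 8 samples correlated best with their own number), so the numbers were not taken as pairs. Of the single neighbours and p53 list genes, TNFRSF10A lost its call in these 16 samples with the block (LFC of 1.56, adjusted p = 0.18) and without it (1.55, adjusted p = 0.065), and NINJ1 was called with filterByExpr (0.29, adjusted p = 0.031).

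Counts near 10 over 10 samples leave single samples at 0 by counting error alone, so that the number of samples with a count says little for the 162 genes under 20 counts.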
